A study of Mus musculus with 24 samples.

Results

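Complement and the coagulation cascade are systems of plasma proteins, and this account follows 36 genes that encode them, out of 21366 genes with a named probe on the array. The 36 were chosen by what their proteins do, though with earlier results of these data known. They hold 15 complement genes: 6 of the lectin and classical pathways, 3 of the central steps around C3 and 6 of the terminal pathway. The others are 13 coagulation factors and contact proteins, and 8 inhibitors and genes of fibrinolysis. Transcripts were measured on 1-colour Agilent arrays in 6 female mice, each of which gave liver, heart, skeletal muscle and brain. In 3 knockin (KI) mice, here named A, B and C by ascending animal number, Rap1 (gene symbol Terf2ip) carried the point mutation I312R, made with CRISPR/Cas9 and backcrossed 4 times to C57BL6, named C57BL/6N in the study's methods. The study describes them as homozygous, while the labels give only the mutant genotype. The other 3 mice, named D, E and F likewise, were wild type (WT). Mice C and F were 14 months old and the rest 15 months old. No mouse received a treatment that the labels name, and the 4 tissues make 24 arrays in 8 groups of 3.

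RAP1 belongs to shelterin, which caps telomeres, and the mutation abolishes its binding to TRF2, the partner that keeps it there. The study asked what RAP1 does away from telomeres, and the arrays compare tissue transcripts between the genotypes. Most complement and clotting proteins of the plasma are made by hepatocytes and secreted as inactive precursors. A trigger on a microbe or a wound starts a chain in which each protease cuts the next, complement ending in a membrane pore and coagulation in fibrin. Several complement genes are also known to be transcribed locally by macrophages, fat cells, fibroblasts and glia.

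A level here is log2 of an array's processed signal minus the 75th percentile of that array, and differences between levels are log2 differences. A probe counts as detected where the scanner program marked it well above background. Levels of different genes come from different probes and are not ranked against each other. Where all 6 arrays of a tissue are given, the order is A, B and C for KI and D, E and F for WT mice. Bulk tissue does not tell fewer cells of a type from less RNA per cell, and p-values measure the spread between these 3 mice a group. No gene passed an adjusted p of 0.05 (limma, Benjamini-Hochberg) between genotypes in any tissue, so genotype differences are given below as values. With 3 mice against 3, an exact permutation test of a single gene cannot give a p below 0.10.

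The tissue labels fitted their markers in the main: the summed signal of 10 hepatocyte markers was 11.77 to 12.74 (log2) in the livers and at most 7.88 elsewhere, apart from 1 brain. The 5 neuron markers were detected in all brains, the 5 cardiomyocyte markers in all hearts and the 5 muscle fibre markers in all muscles. 1 exception was the brain of KI mouse C, where the hepatocyte sum was 9.39, against 7.24 to 7.88 in the other brains. The genotype comparison in brain is therefore given with and without that array. Another was the liver of the same mouse, where the 5 muscle fibre markers summed to 3.77, against -3.17 to -2.55 in the other livers. Neuron marker sums were 5.89 and 5.58 in the livers of mice A and F, against 3.28 to 4.01 in the others. In the muscles of KI mouse B and WT mouse D the 4 neutrophil markers summed to 6.52 and 6.69, against -0.79 to 0.19 in the other muscles. The heart of KI mouse B had the highest Kupffer cell sum of the hearts, at 3.33 against 1.14 to 1.66 in the others. Fat markers were detected in heart and muscle in both genotypes, with sums of 7.01 to 7.83 in hearts and 6.90 to 8.17 in muscles. The KI minus WT difference of Terf2ip was -0.33 in liver (log2; limma, adjusted p = 0.523), and in brain, heart and muscle it was -0.12, -0.15 and -0.069, which does not check the labels, since a point mutation leaves the transcript in place.

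All 36 genes were detected in all 6 livers, and in every gene the lowest liver lay above the highest of the 17 heart, muscle and brain arrays that exclude the brain of mouse C. Elsewhere, below, means these 17 arrays. That gap ran from 1.83 for C3 to 11.98 for Plg (log2), whose highest array elsewhere, a muscle, was not well above background. In WT mice, 36 of 36 were higher in liver than in brain, where 43.0% of all 16641 genes tested were higher in liver. The same held for 36 of 36 against heart (35.2% of 15435 genes) and 36 of 36 against muscle (38.1% of 14893 genes), at adjusted p of at most 8.9e-05 (limma). The median difference over the 36 was 11.3 against brain, 10.9 against heart and 10.0 against muscle, where the medians of all genes tested were 0.17, -0.084 and -0.064. In the WT mice 15 of the 36 were detected in all brains, 15 in all hearts and 9 in all muscles, and the others entered these tests through liver alone. Detected on no WT array of brain, heart and muscle were 9, 14 and 18 of the 36. Their fitted differences rest on background signal, and the medians above include them. With the slide as a fixed term in the fit, 34 of 36 were called against muscle, the WT muscles and livers lying on different slides. With the mouse as a replicate block, 36 of 36 were called in each contrast. The 36 encode plasma proteins made mostly in liver, so these counts were largely fixed by the choice of genes. They do not describe the pathways at large. Of 32 further coagulation and fibrinolysis genes tested against WT heart, 11 were called higher and 16 lower in liver. Of 31 further complement genes tested there, 18 were called higher and 5 lower.

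**Figure D1:**
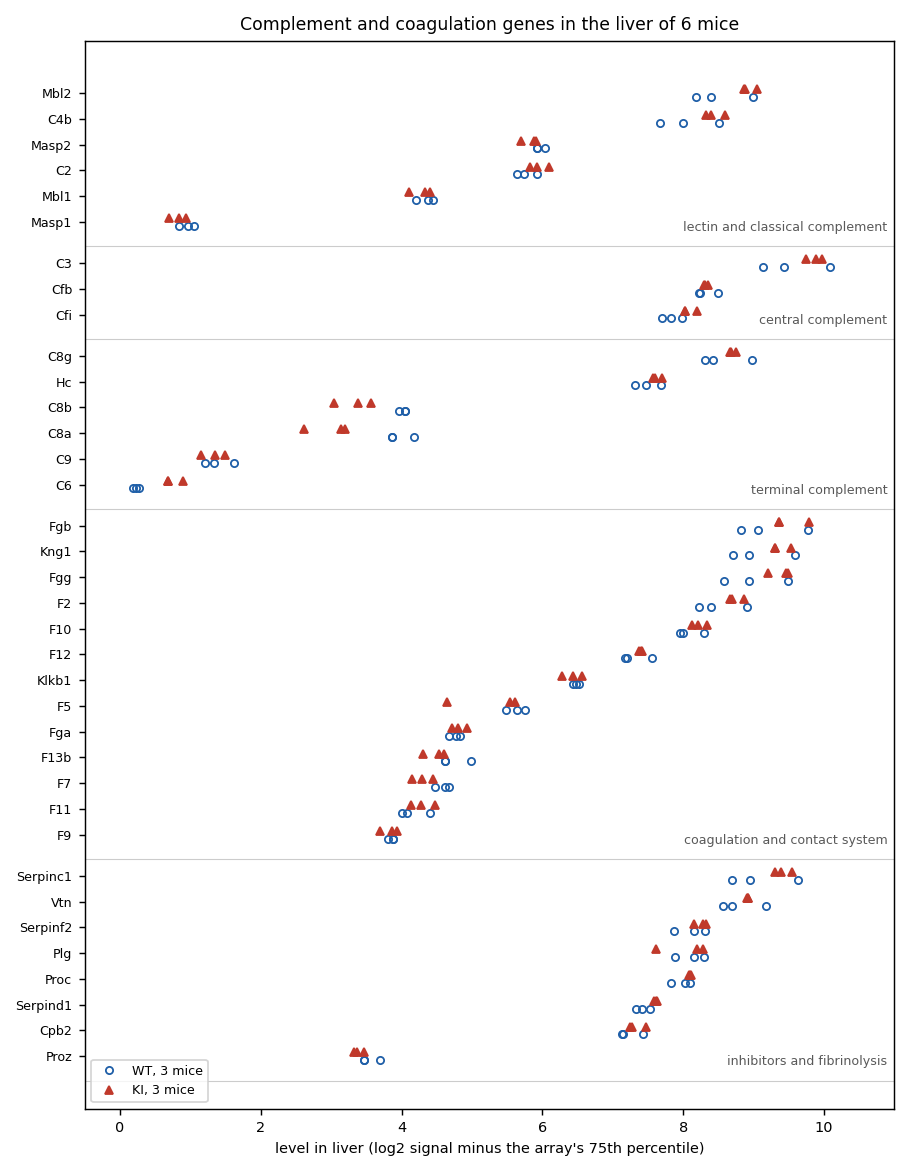
Level of each of the 36 genes in liver (x axis, log2 signal minus the 75th percentile of the array), grouped by role, with 3 WT mice as open circles and 3 KI mice as triangles. In C8a and C8b all 3 KI mice lie to the left of the WT mice and in C6 to the right. In most other genes the genotypes overlap.

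For promoter sequences, 5 genes were picked by rank in these data. C8a, C8b and C6 had the smallest p-values in liver. Fgb had the largest bound on liver against heart, and Vtn had the smallest difference between liver and brain. The sequences just upstream of these genes are printed, and no genotype or tissue result rests on the sequences. Each is the 250 bases before the gene's start in RefSeq (GRCm38.p6, read 5′ to 3′ on the gene's strand): C8a at chr4:104876399-104876648 (minus strand), C8b at chr4:104766067-104766316 (plus), C6 at chr15:4726960-4727209 (plus), Fgb at chr3:83049864-83050113 (minus) and Vtn at chr11:78498870-78499119 (plus). Capitals mark matches, on either strand, to the core of the site of HNF1, a liver transcription factor (GTTAAT), the core of the HNF4 site (CAAAGT), a C/EBP motif (TTGCNNAA) or a TATA box (TATAAA).
C8a: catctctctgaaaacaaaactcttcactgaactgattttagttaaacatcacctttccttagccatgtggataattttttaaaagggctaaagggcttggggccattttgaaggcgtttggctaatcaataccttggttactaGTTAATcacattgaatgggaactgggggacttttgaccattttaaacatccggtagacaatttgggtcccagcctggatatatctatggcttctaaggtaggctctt
C8b: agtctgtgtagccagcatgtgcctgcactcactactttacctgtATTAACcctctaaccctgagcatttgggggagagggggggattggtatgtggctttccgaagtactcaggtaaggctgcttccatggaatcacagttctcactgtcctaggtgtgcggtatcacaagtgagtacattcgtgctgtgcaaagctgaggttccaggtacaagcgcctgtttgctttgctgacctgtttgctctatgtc
C6: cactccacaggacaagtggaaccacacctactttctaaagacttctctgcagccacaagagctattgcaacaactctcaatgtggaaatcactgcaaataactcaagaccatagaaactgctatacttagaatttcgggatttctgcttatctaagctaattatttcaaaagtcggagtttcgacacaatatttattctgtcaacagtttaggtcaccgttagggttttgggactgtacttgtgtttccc
Fgb: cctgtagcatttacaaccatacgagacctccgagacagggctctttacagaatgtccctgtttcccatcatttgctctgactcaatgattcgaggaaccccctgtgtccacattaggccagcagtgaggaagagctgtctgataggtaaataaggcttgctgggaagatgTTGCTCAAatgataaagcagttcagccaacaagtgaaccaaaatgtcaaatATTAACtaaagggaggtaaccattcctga
Vtn: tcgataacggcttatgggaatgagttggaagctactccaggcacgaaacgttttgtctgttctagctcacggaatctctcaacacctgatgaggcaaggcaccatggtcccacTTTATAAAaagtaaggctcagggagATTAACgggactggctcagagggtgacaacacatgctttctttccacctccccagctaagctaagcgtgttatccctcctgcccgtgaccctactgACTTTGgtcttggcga
A promoter was found for 28 of the 36 genes, and 8 had none in the table. C8a and C8b, which are neighbours on chromosome 4, each hold 1 HNF1 core, 107 and 206 bases before the start. C6 holds none of the 4 motifs. Fgb holds an HNF1 core 29 bases and a C/EBP motif 80 bases before its start. Vtn holds an HNF1 core at 112 bases, an HNF4 core at 16 bases and a pair of overlapping TATA matches, 1 on each strand, at 137 and 135 bases. Over the 28 promoters, the HNF1 core was present in 8 (28.6%), against 7.49% of the promoters of 27025 genes. The C/EBP motif was present in 7 (against 10.8%), the HNF4 core in 6 (21.4%, against 14.1%) and the TATA box in 3 (10.7%, against 14.3%). These shares describe letters in a window and not binding.

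Among lectin and classical genes, Mbl1 and Mbl2 encode mannose-binding lectins, which recognise sugars on microbes. Mbl1 was 4.10 to 4.45 in liver and was detected on none of the 17 other arrays, where its signal was -7.96 to -4.54. Mbl2 was 8.18 to 9.05 in liver and -7.66 to -3.23 elsewhere, detected on 5 of 17 arrays. Masp1 and Masp2 encode the proteases attached to these lectins. Masp1 was 0.69 to 1.05 in liver and -8.08 to -2.83 elsewhere (detected on 3 of 17). Masp2 was 5.69 to 6.04 in liver and was also detected in every brain and heart. In heart Masp2 was -3.76, -3.87 and -4.13 in the KI mice against -3.30, -3.76 and -3.75 in the WT mice. The brains had -3.67, -4.13 and -0.38 in the KI mice against -3.25, -3.70 and -3.81 in the WT mice. Without that of KI mouse C, the range of the brains overlapped that of the hearts. C2 and C4b supply the pieces of the convertase that cuts C3, and both were detected on all 24 arrays.

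C2 was 5.64 to 6.10 in liver. It was 1.21, 2.33 and 0.43 in the KI mice against 1.23, 1.15 and 0.38 in the WT mice in heart, and 0.98, 2.41 and 1.97 in the KI mice against 2.08, 0.97 and 1.63 in the WT mice in muscle. In both tissues KI mouse B had the highest value. Brain levels of C2 were -0.022, -0.020 and 1.19 in the KI mice against -0.030, -0.016 and 0.12 in the WT mice, so that 5 of the 6 brains lay between -0.030 and 0.12. As a share of the median liver signal, C2 outside liver reached 3.84% in heart, 5.91% in muscle and 1.68% in the 5 brains. C4b was 7.67 to 8.60 in liver, 3.17, 4.86 and 3.58 in the KI mice against 3.25, 3.63 and 2.78 in the WT mice in heart, and 1.92, 4.63 and 3.07 in the KI mice against 4.23, 1.08 and 2.28 in the WT mice in muscle. Muscles of the same genotype thus differed by over 2 (log2), and the highest C2 and C4b were in KI mouse B and WT mouse D, the muscles with the high neutrophil marker sums. Brain levels of C4b were 3.12, 2.90 and 3.85 in the KI mice against 2.85, 2.88 and 3.14 in the WT mice, which is 2.27% of the liver median over the 5 brains, against 3.24% in heart and 1.95% in muscle. The near-identical neighbour C4a may share signal with this probe.

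Of the central genes, C3, on which all complement pathways converge, had the highest share outside liver of the 36. C3 was 9.13 to 10.08 in liver and 6.90, 7.30 and 6.66 in the KI mice against 6.86, 6.65 and 6.63 in the WT mice in heart. WT liver exceeded WT heart by 2.83 (log2; SE 0.41), or 7.14-fold. Muscle levels of C3 were 4.69, 5.60 and 5.59 in the KI mice against 5.77, 4.03 and 5.34 in the WT mice, and brain levels -0.043, -0.097 and 5.61 in the KI mice against -0.73, -0.031 and 0.14 in the WT mice. The heart median was 12.1% of the liver median, the muscle median 4.93% and that of the 5 brains 0.108%. The order of C3 was therefore liver, heart, muscle and brain, with no overlap between neighbours when the brain of mouse C was left out. Cfb, the protease of the alternative pathway, was 8.22 to 8.50 in liver. Its levels were -0.15, 0.66 and -0.53 in the KI mice against -0.70, -0.30 and -1.48 in the WT mice in heart and -0.49, 1.51 and 1.15 in the KI mice against 0.81, -0.21 and 0.31 in the WT mice in muscle, which overlapped. The brains had -4.22, -4.04 and 2.15 in the KI mice against -4.58, -3.36 and -3.49 in the WT mice, below every heart and muscle except in KI mouse C. Cfi, the protease that degrades active C3 and C4 fragments, was 7.71 to 8.20 in liver and -7.60 to -3.11 elsewhere (detected on 3 of 17).

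The terminal genes encode C5 (gene Hc) and the proteins that assemble on it into the membrane pore. Hc was 7.32 to 7.70 in liver and was detected in all 6 brains, at -2.85, -2.95 and 1.64 in the KI mice against -3.26, -3.41 and -2.18 in the WT mice. In heart and muscle Hc was detected on 4 of 12 arrays. C8g, the lipocalin-like chain of C8, was 8.31 to 8.98 in liver and detected on all 24 arrays. C8g was 0.11, -0.086 and 0.25 in the KI mice against 0.25, 0.17 and 0.15 in the WT mice in heart, 0.67, 0.47 and 0.69 in the KI mice against 0.56, 0.84 and 0.73 in the WT mice in muscle and -1.05, -1.04 and 2.95 in the KI mice against -1.04, -1.10 and -1.02 in the WT mice in brain. Apart from the brain of mouse C these levels varied little within a tissue, and in each tissue the genotypes overlapped. The other C8g probe, lower in liver at 4.37 to 4.99, reached at most -0.94 on the 17 arrays. C8b (3.04 to 4.05 in liver) and C9 (1.16 to 1.62 in liver) were detected on none of the 17 other arrays. C8a (2.61 to 4.18 in liver) was detected on 1 of 17, and C6 (0.18 to 0.89 in liver) on 7 of 17 with a highest level of -3.51.

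Among the clotting proteases, F2 (prothrombin) was 8.22 to 8.90 in liver and -7.63 to -1.36 elsewhere. Its highest value on these 17 arrays was in the muscle of KI mouse B, at -1.36, where the other muscles had -6.02 to -3.40. F7, which starts clotting with tissue factor, was 4.15 to 4.67 in liver and -4.33, -3.32 and -3.27 in the KI mice against -2.74, -3.57 and -3.17 in the WT mice in heart. The other F7 probe, 4.07 to 4.55 in liver, was at most -5.24 on the 17 arrays, so the heart value rests on 1 of 2 probes. F9, the protease whose loss causes haemophilia B, was 3.69 to 3.94 in liver and was detected on all 24 arrays. F9 was -1.79, -2.68 and -3.19 in the KI mice against -2.79, -2.30 and -2.80 in the WT mice in heart, -2.98, -2.34 and -3.19 in the KI mice against -2.75, -2.96 and -2.67 in the WT mice in muscle and -3.65, -3.63 and -1.87 in the KI mice against -3.53, -3.93 and -3.66 in the WT mice in brain. The heart and muscle ranges of F9 overlapped, and the 5 brains lay below all muscles. F10, the protease that cuts prothrombin, was 7.96 to 8.34 in liver and -3.74, -2.11 and -3.22 in the KI mice against -3.72, -2.80 and -3.10 in the WT mice in heart.

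F5, the cofactor of F10, was 4.64 to 5.75 in liver, -2.26, -0.32 and -2.48 in the KI mice against -2.65, -0.85 and -1.90 in the WT mice in heart and -2.35, -1.95 and 0.30 in the KI mice against -1.29, -1.20 and -2.66 in the WT mice in brain. Its lowest liver was that of KI mouse C, on this probe more than on the other F5 probe, where the 6 livers had 3.99 to 4.38. F12, which starts the contact pathway, was 7.17 to 7.56 in liver and detected in all brains, at -3.00, -3.10 and 1.26 in the KI mice against -2.97, -3.28 and -2.66 in the WT mice, and in no heart or muscle. F11, its substrate, was 4.01 to 4.48 in liver, and F13b, the carrier chain of the fibrin-linking enzyme, was 4.30 to 4.98. Neither was detected on any of the 17 other arrays. Klkb1, the prekallikrein of the contact pathway, was 6.28 to 6.56 in liver and -5.82 to -3.55 elsewhere (detected on 9 of 17). Kng1, the kininogen that releases bradykinin, was 8.71 to 9.59 in liver and detected in all muscles, at -2.24, 0.27 and -1.04 in the KI mice against -0.42, -1.61 and -1.74 in the WT mice. The other Kng1 probe, 7.14 to 7.46 in liver, was at most -5.93 on the 17 arrays, so the muscle value rests on 1 of 2 probes.

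The fibrinogen chains Fga, Fgb and Fgg, which are neighbours on chromosome 3, form the substrate of the clot. Fga was 4.68 to 4.93 in liver, Fgb 8.83 to 9.78 and Fgg 8.58 to 9.49. Outside liver they were detected on 4, 4 and 6 of 17 arrays, at no more than -3.37, -2.77 and -2.57. The other Fga probe, 6.49 to 7.35 in liver, was at most -5.59 on these arrays. Against WT heart, where neither Fgb nor Fgg was detected, liver was at least 19709-fold higher for Fgb and at least 16911-fold higher for Fgg. These bounds set the heart at the lowest level the array measured well above background or at its own value, whichever was higher.

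Among inhibitors and fibrinolysis genes, Vtn, which encodes the adhesion and complement-control protein vitronectin, was detected on all 24 arrays. Vtn was 8.57 to 9.17 in liver and 3.80, 4.03 and 4.29 in the KI mice against 3.76, 3.91 and 3.71 in the WT mice in brain, a narrow range that held the array of mouse C only 0.27 above the next. Heart levels of Vtn were 2.52, 1.70 and 2.68 in the KI mice against 2.79, 2.68 and 2.90 in the WT mice, and muscle levels 2.05, 2.44 and 2.39 in the KI mice against 2.07, 1.90 and 2.70 in the WT mice. The brains lay above all hearts and muscles, while hearts and muscles overlapped. WT liver exceeded WT brain by 5.02 (log2; SE 0.22) for Vtn, 32.4-fold and the smallest of the 36 in that contrast. Serpind1 encodes heparin cofactor II, an inhibitor of thrombin. It was 7.33 to 7.62 in liver and, after Vtn, C4b and C2, had the next highest share in brain, at 0.634% of the liver median. Brain levels of Serpind1 were 0.46, 0.31 and 1.81 in the KI mice against -0.062, 0.25 and -0.058 in the WT mice, and heart levels -3.80, -3.31 and -3.00 in the KI mice against -3.36, -3.58 and -3.75 in the WT mice. Each brain was above every heart.

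Cpb2 encodes the carboxypeptidase that slows fibrin breakdown, and its probe was detected on all 24 arrays. It was 7.13 to 7.47 in liver, -2.72, -2.13 and -2.74 in the KI mice against -1.69, -2.90 and -1.33 in the WT mice in heart, -1.46, -2.28 and -3.30 in the KI mice against -2.26, -2.77 and -3.16 in the WT mice in muscle and -4.68, -4.77 and 0.93 in the KI mice against -4.03, -4.31 and -4.18 in the WT mice in brain. Hearts and muscles overlapped, and the 5 brains lay below both. Proc, the anticoagulant protein C, was 7.83 to 8.11 in liver and -4.52, -4.52 and -4.20 in the KI mice against -4.83, -4.64 and -4.35 in the WT mice in heart. Serpinf2, which inhibits plasmin, was 7.87 to 8.33 in liver and -4.52, -4.13 and 2.11 in the KI mice against -4.23, -3.56 and -3.44 in the WT mice in brain. Serpinc1 (antithrombin) was 8.69 to 9.63 in liver and -7.70 to -2.76 elsewhere (detected on 5 of 17). Plg (plasminogen) was 7.62 to 8.30 in liver and -7.18 to -4.36 elsewhere (detected on 2 of 17). Proz, a cofactor in the inhibition of F10, was 3.33 to 3.70 in liver and detected on none of the 17 arrays.

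**Figure D2:**
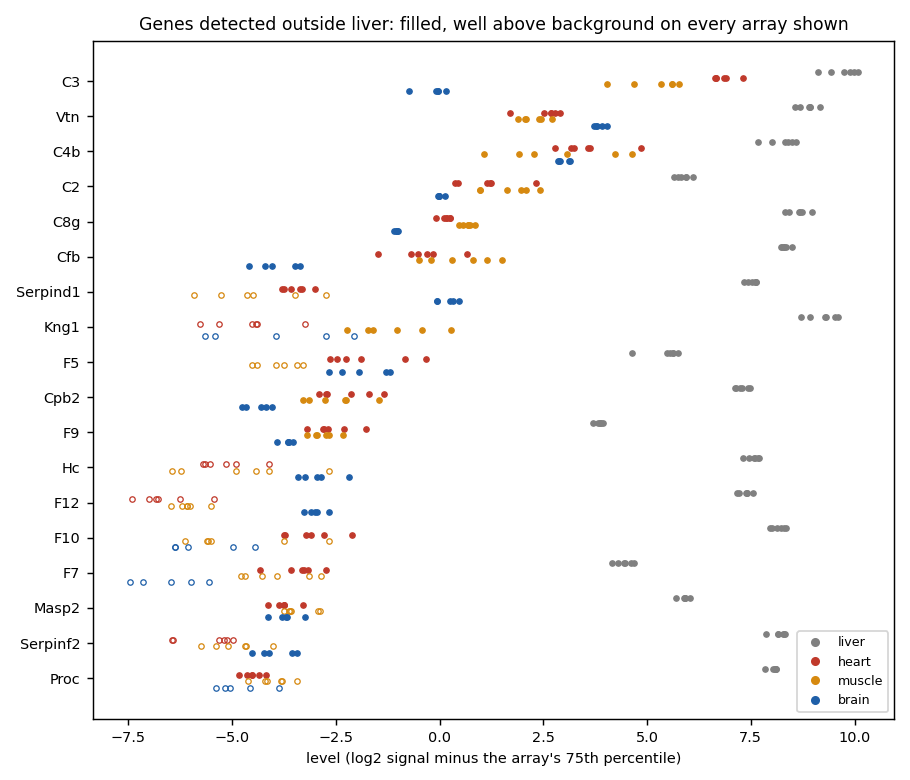
Level (x axis, log2 signal minus the 75th percentile of the array) in liver, heart, muscle and brain of the 18 genes detected on all arrays of at least 1 tissue outside liver. Each point is 1 array, the brain of KI mouse C being left out, and open points mark tissues where some array was not well above background. C3 in heart comes closest to its own liver level, and for Vtn and Serpind1 all brains lie to the right of all hearts.

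By tissue, 14 of the 36 genes were detected in all brains, 14 in all hearts and 9 in all muscles. C2, C3, C4b, C8g, Cfb, F9, Vtn and Cpb2 were detected in all 3. Counting any array, 36 were detected in brain, 26 in heart and 22 in muscle. In the brain, 8 of the 36 owed this to mouse C alone.

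In liver the 3 smallest unadjusted p-values among the 36 genes all belonged to terminal complement. C8a and C8b, which encode the chains of C8 that join the forming pore, had lower levels in every KI than in every WT mouse. C6, which joins the pore before C8, had higher levels in every KI mouse. None passed the threshold after adjustment over 14089 genes. C8a was 2.61, 3.14 and 3.19 in the KI mice against 3.87, 3.86 and 4.18 in the WT mice, with means of 2.98 ± 0.32 in KI and 3.97 ± 0.18 in WT livers (SD, n = 3 each). The difference was -0.99 (log2; SE 0.19, n = 3 and 3), or 1.98-fold, with an adjusted p of 0.358 in limma. The other C8a probe read -1.20, -0.68 and -0.86 in KI livers against 0.034, 0.13 and 0.32 in WT livers, so both probes separated the genotypes. C8b was 3.56, 3.38 and 3.04 in the KI mice against 4.05, 4.04 and 3.96 in the WT mice, a difference of -0.69 (log2; SE 0.16, n = 3 and 3, limma, adjusted p = 0.358). C6 was 0.68, 0.69 and 0.89 in the KI mice against 0.22, 0.27 and 0.18 in the WT mice, a difference of 0.53 (log2; SE 0.12, n = 3 and 3, limma, adjusted p = 0.358). All 3 kept their direction, and their groups did not overlap, under quantile normalization, normexp background correction, the deposited scores and the mean of all probes. Without mouse C, whose liver had the high muscle fibre sum, the differences were -1.09, -0.55 and 0.46 for C8a, C8b and C6, and 23 of the 36 genes were above 0.

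**Figure D3:**
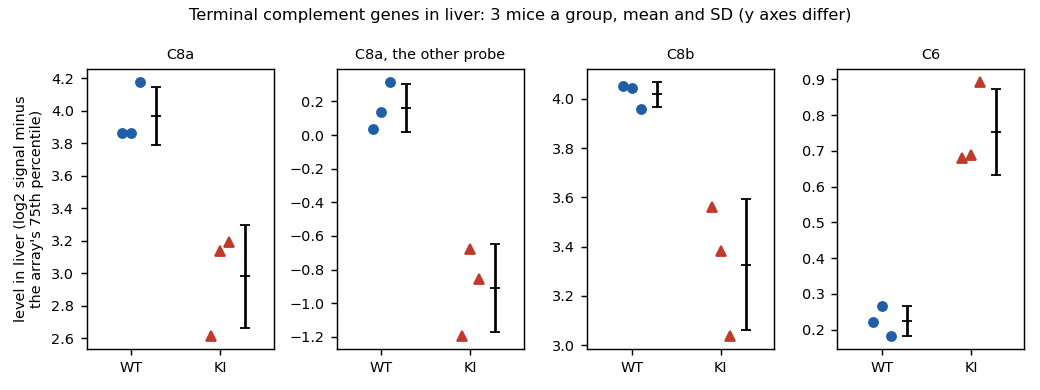
Level in liver (y axes, log2 signal minus the 75th percentile of the array, on a scale of its own in each panel) of C8a on each of its probes, C8b and C6. Points are single mice, 3 a group, and bars give the mean and SD. KI mice lie below WT mice for C8a and C8b and above them for C6.

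Of the other terminal genes, Hc was 0.13 (log2; SE 0.14, n = 3 and 3) in KI relative to WT liver, C8g 0.12 and C9 -0.055, and their groups overlapped. Over all 36 genes, 3 had an unadjusted p under 0.05, where 11.7% of all genes tested did (1652 of 14089) and 0 passed the adjusted threshold. Groups did not overlap in 8 of 36: C6, Cfi and Serpind1 were higher in all KI mice (12.8% of all genes tested were), and C8a, C8b, F7, F13b and Masp2 lower (7.03% of all). Under quantile normalization Cfi, Serpind1 and F13b overlapped and Mbl2 did not, and with normexp Serpind1, F13b and Masp2 overlapped, and in the deposited z-scores Cfi, Serpind1 and Masp2 did and Proz did not. Cfi was 8.20, 8.02 and 8.02 in the KI mice against 7.71, 7.99 and 7.82 in the WT mice. Serpind1 was 7.59, 7.62 and 7.62 in the KI mice against 7.33, 7.52 and 7.42 in the WT mice. F7 was 4.29, 4.45 and 4.15 in the KI mice against 4.67, 4.61 and 4.47 in the WT mice, a difference of -0.29 (log2; SE 0.13, n = 3 and 3). Both F7 probes had all KI livers below all WT livers. F13b was 4.30, 4.60 and 4.53 in the KI mice against 4.98, 4.61 and 4.61 in the WT mice. Masp2 was 5.69, 5.88 and 5.90 in the KI mice against 5.92, 6.04 and 5.92 in the WT mice, with the nearest KI and WT mice almost level.

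The fibrinogen gene Fga depended on the probe. The brighter one over all 24 arrays gave 4.72, 4.80 and 4.93 in the KI mice against 4.68, 4.77 and 4.83 in the WT mice, which overlapped. The other read 6.49, 6.90 and 6.50 in KI livers against 7.35, 7.07 and 7.08 in WT livers, all KI mice lower. Fgb was 9.78, 9.37 and 9.36 in the KI mice against 8.83, 9.77 and 9.06 in the WT mice and Fgg 9.45, 9.20 and 9.49 in the KI mice against 8.58, 9.48 and 8.93 in the WT mice, and both overlapped. None of the 13 coagulation genes reached an unadjusted p of 0.05. F5 was -0.36 (log2; SE 0.27, n = 3 and 3) in KI relative to WT, and Fgg 0.39 (log2; SE 0.24, n = 3 and 3). Among lectin genes Mbl2 was 0.41 (log2; SE 0.22, n = 3 and 3) and C4b 0.38 (log2; SE 0.22, n = 3 and 3), both overlapping.

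The direction of the list as a whole turned with the scaling. With each array set to its 75th percentile, 22 of 36 genes were above 0 and the median KI difference was 0.11, where all genes tested had 0.047. With quantile normalization 14 of 36 were above 0 and the median was -0.045, and with normexp background correction 12 of 36 and -0.048. The 12 brightest genes of the list in liver, from C3 and Fgb to C4b and Serpinf2, were all lowest in WT mouse D. Their median deviation from the mean of the 6 livers was 0.27, 0.056 and 0.074 in the KI against -0.53, 0.30 and -0.25 in the WT mice. After quantile normalization it lay between -0.093 and 0.057. The 75th percentile signal, by which each array was divided, was 527.5, 635 and 587 in the KI against 1136, 468 and 929 in the WT livers, so the livers with the highest percentile had the lowest bright genes. The C3 probe ranged 1.26-fold in processed signal over the 6 livers, while the percentile ranged 2.43-fold, and no spot was marked saturated. The part of this in the genotype values was not tested. Without WT mouse E, 12 of 36 genes had an unadjusted p under 0.05 (2082 genes in all), against 3 (1652 of 14089 in all) with it. The WT livers then left, D and F, had the highest 75th percentile signals, 1136 and 929. They also had the lowest bright genes, at -0.53 and -0.25. The part of the scaling in this rise was not tested.

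**Figure D4:**
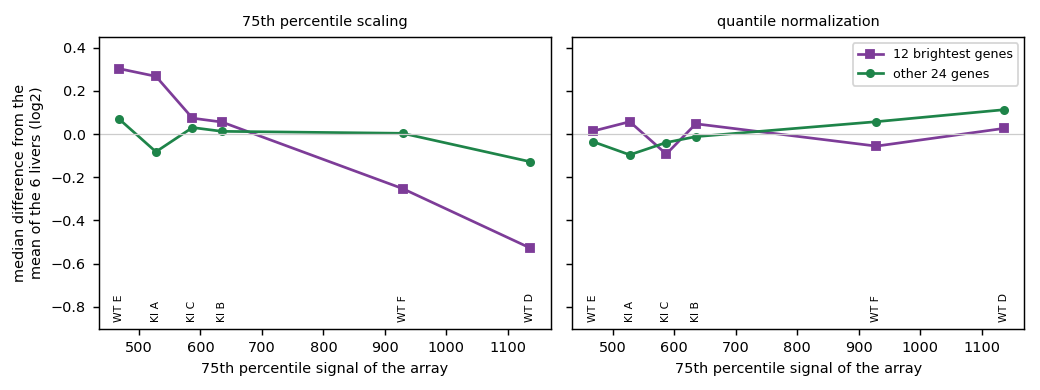
Median deviation of the 12 brightest and the other 24 genes from their mean over the 6 livers (y axis, log2), against the 75th percentile signal of each array (x axis, linear processed signal), with 1 point per mouse and lines joining them. With percentile scaling on the left the 12 brightest lie between 0.30 in WT E and -0.53 in WT D, and with quantile normalization on the right they stay between -0.093 and 0.057.

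Other genes of these pathways were read in the same livers. Of 34 further complement genes 29 were tested, and 6 had an unadjusted p under 0.05, all higher in KI mice, where 7.75% of all genes tested were, with a median of 0.20 against 0.047 over all genes. Of 37 further coagulation and fibrinolysis genes 28 were tested, 5 higher and 1 lower at an unadjusted p under 0.05 (7.75% and 3.97% of all genes tested), with a median of 0.24. None of 4 vitamin K cycle genes and 2 of 10 liver transcription factors, 1 in each direction, reached that level, and no gene of these lists passed the adjusted threshold. The smallest p-values were those of Vsig4, a complement receptor of liver macrophages, Serpine2, an inhibitor of thrombin, and C1qa, a chain of C1q. Vsig4 was 4.25, 4.05 and 4.27 in the KI mice against 3.71, 3.50 and 3.46 in the WT mice, a difference of 0.63 (log2; SE 0.13, n = 3 and 3). C1qa was 2.85, 2.79 and 3.20 in the KI mice against 2.40, 2.20 and 2.19 in the WT mice, a difference of 0.68 (log2; SE 0.15, n = 3 and 3). Serpine2 was -3.46, -3.40 and -2.60 in the KI mice against -1.40, -2.14 and -1.76 in the WT mice, a difference of -1.39 (log2; SE 0.29, n = 3 and 3). Each had an adjusted p of 0.358 in limma, with groups that did not overlap. The 5 Kupffer cell markers, of which Vsig4 is 1, were all detected and summed to 6.51 to 6.74 (log2) in KI and 5.71 to 6.15 in WT livers, and 4 of 5 were higher in every KI mouse (12.8% of all genes tested were). Of the 15 marker lists 6 had sums higher in every KI than in every WT liver. Beside the Kupffer cell list these were the lists for stellate cells and fibroblasts (6.84 to 7.12 in KI and 6.08 to 6.70 in WT livers) and microglia (5.30 to 5.63 and 4.64 to 4.77). The lists for fat cells, platelets and, by a narrow gap, erythrocytes did so too. A high sum of a list in liver does not show that the cell type it is named for is there. The part of any cell type in the values was not tested.

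The brain of KI mouse C had levels above every other brain in 34 of the 36 genes. Of 15567 other genes detected in every brain, 15.4% did. Of the 36, 14 were detected in every brain, and all 14 were above every other brain. The remaining 22 were not detected in all the other brains, so their order there rests in part on background signal. It had 35 of the 36 detected, against 15 to 27 in the other 5 brains. Serpinc1 was highest above the rest: it was -7.70, -5.43 and 4.51 in the KI mice against -7.43, -3.24 and -2.76 in the WT mice, 7.26 (log2) above the next brain. F2 was -5.64, -5.19 and 3.43 in the KI mice against -7.45, -4.68 and -3.60 in the WT mice. Fgb was -4.20, -5.01 and 4.10 in the KI mice against -3.27 and -2.77 in WT mice E and F, the spot of mouse D having been left out as an outlier. Cfi was -5.65, -6.57 and 1.92 in the KI mice against -7.43, -5.38 and -4.91 in the WT mice, and Fgg -4.22, -5.35 and 4.22 in the KI mice against -7.60, -3.44 and -2.57 in the WT mice. In these 5 genes the other brains were not level either: those of WT mice E and F lay above that of KI mouse B in each. C6 (-6.90, -4.50 and -5.26 in the KI mice against -6.71, -6.68 and -7.07 in the WT mice) and Masp1 (-7.86, -4.60 and -5.50 in the KI mice against -7.48, -8.08 and -8.00 in the WT mice) were the exceptions, where KI mouse B was highest.

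Relative to the liver of the same mouse, the brain signal of the 36 genes was 1.56% in the median and 0.930% to 5.17% in range, from C8a to C3. With normexp background correction the median was 2.89%. The signal in excess of the other brains was 1.39% of the liver signal in the median, 2.44% for the 12 genes brightest in liver and 1.20% for the other 24. All 10 hepatocyte markers were above the other brains as well, Ttr and Trf by only 0.039 and 0.13 (log2). Their signal was 8.91% of the own liver in the median (1.17% to 20.4%). Their excess over the other brains was 5.79% in the median, more than that of the 36 genes. Genes such as C8b, which no other brain had above background, were detected in this array at -2.56, C9 at -4.44, Mbl1 at -2.07 and F13b at -1.91. Of the 15 marker lists 7 had sums above every other brain. The Kupffer cell sum was 1.08 against -1.17 to -0.90, that of liver sinusoidal endothelium 0.93 against -1.53 to -1.06 and that of stellate cells and fibroblasts 4.64 against 3.36 to 3.81. The other lists were those of hepatocytes, given above, choroid plexus, fat cells and neutrophils. Choroid plexus markers summed to 4.50 against 2.75 to 4.15 and fat markers to -2.80 against -4.30 to -3.77. The neutrophil sum was 2.20 against -0.79 to 1.84. The 36 genes and these 7 lists were thus high in the same array, and the origin of the signals was not tested.

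**Figure D5:**
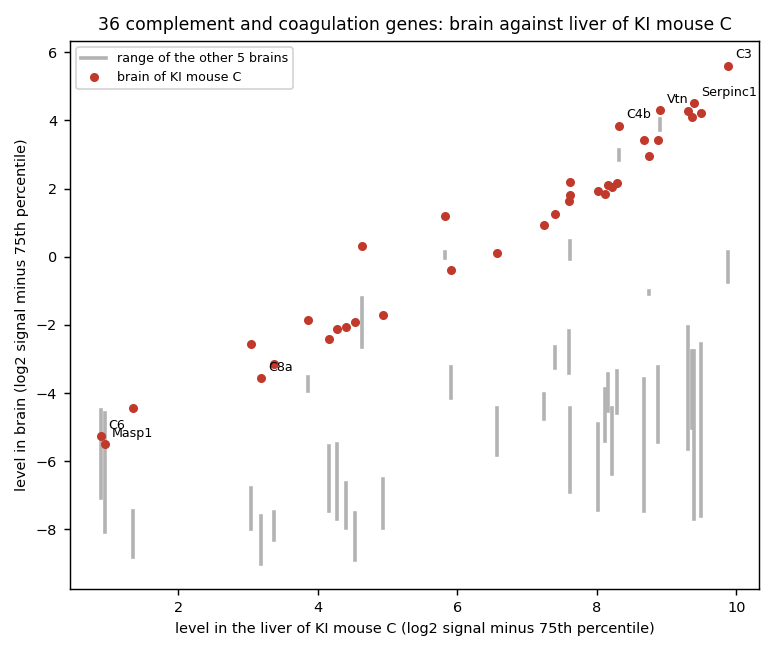
Level of the 36 genes in the brain (y axis) against the liver (x axis) of KI mouse C, both as log2 signal minus the 75th percentile of the array. Points are the brain of that mouse and grey bars the range of the other 5 brains. Brain levels follow the liver levels, and only C6 and Masp1 lie inside the range of the other brains.

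In the genotype comparison of brain 20 of the 36 genes were tested. Of these 14 were detected in every brain, while Mbl2, Fgb, Fgg, Kng1 and Proc entered through the KI mice alone and Klkb1 through the WT mice alone. All 14 detected in every brain were above 0 in KI relative to WT, with a median of 1.09, and over the 20 the median was 1.34. Over all 16069 genes tested, 6905 were above 0 and the median was -0.020. Without mouse C, 7 of the 14 and 7 of the 20 were above 0, with medians of -0.020 and -0.29, so the direction rested on that array. None passed the threshold with it or without it (limma). At an unadjusted p under 0.05 there were none of the 20 with it, where 0.790% of all 16069 genes were, and 3 of the 20 without it, where 1.04% of 16115 genes were. These 3, Fgb, Cpb2 and Klkb1, are named after their values were seen and lay below 0, at -1.59, -0.55 and -0.75 (log2; SE 0.33, 0.16 and 0.26, limma, adjusted p = 1.00 each). Fgb then had 2 mice on each side. Klkb1 was detected in 1 of the 2 KI and in all WT brains left, and so entered through the group where it was higher. With mouse C the smallest p-values were those of Serpind1, Vtn and F9. Serpind1 was 0.82 (log2; SE 0.39, n = 3 and 3, limma, adjusted p = 1.00) with it and 0.34 without it. Vtn was 0.25 (log2; SE 0.16, n = 3 and 3) with it and 0.12 without it, and F9 0.66 (log2; SE 0.47, n = 3 and 3) and 0.067. Within the slide that holds mouse C (2 KI and 2 WT mice) 20 of 20 genes were above 0, and on the other slide (1 and 1) 11 of 19. C4b, C2 and C8g, detected in every brain, were 0.055, -0.047 and 0.0067 in KI relative to WT mice without mouse C.

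In heart, 15 of the 36 genes were tested (Klkb1 through the WT mice alone) and 10 were above 0, with a median of 0.11. Over all 14927 genes tested, 5768 were above 0 and the median was -0.051. None had an unadjusted p under 0.05 (1.61% of 14927 genes did) and none passed the threshold. The smallest p-values were those of Cfb, Vtn and Masp2, whose arrays are given above. Cfb was 0.82 (log2; SE 0.39, n = 3 and 3) in KI relative to WT (limma, adjusted p = 0.978), with overlapping groups. Vtn was -0.49 (log2; SE 0.26, n = 3 and 3) and Masp2 -0.32 (log2; SE 0.18, n = 3 and 3), and in both all 3 KI mice lay below the WT mice, though the nearest KI and WT mice were almost level. These were the only 2 of the 15 whose groups did not overlap. Of all 14927 genes tested, 437 were lower in every KI heart and 284 higher. KI mouse B had the highest heart level of C2, C3, C4b, Cfb, F5 and F10 and the lowest of Vtn. In the same heart Adipoq and Cidec, genes of fat cells, were 1.59 and 1.97, against at most -0.43 and -0.22 in the others. The sum of the 5 fat markers went the other way: it was the lowest of the hearts, at 7.01 against 7.33 to 7.83. The hepatocyte sum was the highest of the hearts, at 5.73 against 4.52 to 4.79. So were the platelet sum, 6.07 against 4.68 to 5.36, and the Kupffer cell sum given above. The microglia, sinusoidal endothelium, fibroblast, cardiomyocyte and neutrophil sums were also highest there. The astrocyte, choroid plexus, endothelium and muscle fibre sums were lowest, and the neuron and erythrocyte sums lay between. The part of any cell type in the gene levels was not tested. Without that mouse 6 of 15 genes were above 0, and without WT mouse D also 6. Within the slide of mouse B (2 and 2 mice) 9 of 15 were above 0 and on the other slide (1 and 1) 7 of 15.

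In muscle, 10 of the 36 genes were tested and 8 were above 0, with a median of 0.25. Over all 13514 genes tested, 7570 were above 0 and the median was 0.026. None passed the threshold, and 1 had an unadjusted p under 0.05, where 0.829% of 13514 genes did. This was Proc, at -3.80, -3.45 and -3.83 in the KI mice against -4.20, -4.17 and -4.62 in the WT mice. Its probe was detected in the 3 KI muscles and in no WT muscle, so it entered the test, and the 8 above 0, through the KI mice alone. The KI level exceeded the WT one at least 1.45-fold (limma, adjusted p = 1.00). Cpb2 was 0.39 (log2; SE 0.47, n = 3 and 3) and Cfb 0.42 (log2; SE 0.54, n = 3 and 3), with overlapping groups. The highest C2, C4b, Cfb and Kng1 levels were those of KI mouse B, whose muscle also had the highest fat marker sum, 8.17 against 6.90 to 7.96 in the other muscles, and the highest erythrocyte sum, 8.56 against 6.24 to 7.60. Its neutrophil sum of 6.52 was shared with WT mouse D (6.69), which came next in C2 and C4b, and these muscles also had the highest sums of fibroblast markers, 8.25 and 8.84 against 6.86 to 7.58. The part of these cell types in the values was not tested. Without mouse B, 4 of 10 genes were above 0, without WT mouse D 7 of 11 and without WT mouse E 5 of 12.

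Whether the genotype difference varied between the 4 tissues was asked of all 24 arrays together. None of the 36 genes passed, the smallest adjusted p being 1.00 (limma, F-test over 17295 genes). At an unadjusted p under 0.05 there were 319 genes in all, none of them among the 36, and 0 passed after adjustment.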

How the data were processed

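Total RNA (200 ng) was labelled with Cy3, and the authors extracted intensities with Agilent Feature Extraction 12.0.3.1 (probe annotation on mm9). The deposited processed signal, an intensity with background subtracted by that program, was used, with its deposited flags for background, saturation and outliers; the deposited median spot and background intensities served for normexp. Any normalization or test by the authors was not given in the sources used here. The deposited score table of 33912 features matched z-scores of log signal within an array (largest difference 0.0071; column medians -0.10 to 0.095) and was an alternative only.

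Each array held 62976 spots (59305 not controls) and 55681 probes. Control and outlier spots (121 to 347 an array) were dropped and spots of a probe averaged. The 75th percentile signal ranged from 269 to 2198, 49.4% to 68.4% of probes were well above background, and 0 spots were saturated. The number of arrays limits the precision. RefSeq accessions named 50.9% of probes (99.0% of 26732 curated mRNA probes), and the brightest probe over 24 arrays stood for a gene. Genes well above background on all 3 arrays of a group were fitted with limma 3.58.1 (R 4.3.3; lmFit, eBayes, two-sided), each tissue alone, WT tissues in 1 fit, with Benjamini-Hochberg adjustment at 0.05. Figures were drawn with matplotlib 3.10.9 in Python 3.11.15.

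The genes, pathway and marker lists and alternatives were chosen with earlier results of these data known. Named in full are the 3 genes of smallest p per tissue, those detected throughout a tissue outside liver, the 5 highest in the brain of mouse C, and 3 pathway genes. The same mouse gave all tissues, so numbers pair arrays across tissues: over 11617 genes, deviations correlated by 0.021 on average within a mouse (range -0.26 to 0.34) and by -0.0094 between mice of a genotype, and the consensus correlation was -0.0021. Genotypes share no mouse. Liver lay on slide 1, brain on slides 1 and 2, heart on 2 and 3, and muscle on 3. No sample column was without a sample.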

Additional observations from a re-analysis of the deposited data

How the results depend on the processing

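The alternatives were other scalings and background correction, the deposited scores, the mean of all probes, no filter on dim probes, all arrays in 1 fit, slide and mouse as blocks, and leaving out each mouse. Leaving out the brain of mouse C and the heart and muscle of mouse B was singled out after seeing the data. No genotype difference of the 36 genes passed the threshold under any of them. Genes called in liver over the whole array numbered 0 mainly and 3 with all 24 arrays in 1 fit, with or without the mouse as a replicate block, where none of the 36 had an unadjusted p under 0.05. Leaving out a mouse gave 0 to 1 such genes in heart, 0 to 4 in muscle (4 when KI mouse A was dropped). The test of whether tissues differed gave 0 to 1, and 1 under quantile normalization. The cause was not tested. Of the genes of the list above 0, 7 in brain were left without mouse C, 6 in heart without WT mouse D or KI mouse B, and in muscle 4 with KI mouse B and 5 with WT mouse E dropped. Leaving out a mouse moved Cpb2 in muscle between -0.057 (without KI mouse A) and 0.86 (without KI mouse C), against 0.39. Detection on any array rather than all raised the counts to 36 in brain, 26 in heart and 22 in muscle. The median brain signal of mouse C was 2.89% of its liver with normexp, against 1.56%. Under quantile normalization the median liver deviation of the 36 genes moved from 0.065 to -0.049 in KI mouse A, from -0.19 to 0.046 in WT mouse D and from 0.047 to -0.050 in KI mouse C. With the mouse as a replicate block, 36 of 36 genes were higher in WT liver than in each other tissue. Signal over background limits the comparison outside liver, where a probe near background has no dependable order.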
